A study of Mus musculus with 6 samples.

Results

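The genes of MHC class I antigen presentation were examined in bone marrow-derived macrophages (BMDMs), primary cells that mature from marrow precursors in culture. The members were chosen by gene symbol and comprised B2m, 5 class I heavy chains (H2-K1, H2-D1, H2-Q7, H2-T23 and H2-M3) and 4 genes of peptide transport and loading (Tap1, Tap2, Tapbp and Tapbpl). All 10 were among the 55291 rows of the deposited count table, and 9 were among the 9815 genes with enough counts to be tested. The WT group comprised 3 C57BL/6 mice with an intact Pyk2 gene, and their libraries were numbered 1, 5 and 6. The PYK2 KO group comprised 3 C57BL/6 mice with a Pyk2 knock-out, numbered 2, 3 and 4. The knockout is a total PYK2 knockout and is not restricted to macrophages. Age and sex of these mice are not given in the sources used here. Cells of both genotypes were grown for 7 days with L929-conditioned medium as a source of M-CSF. Transcript ends were then sequenced by a bulk adaptation of MARS-seq, with 1 library per mouse.

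MHC class I molecules are built from a polymorphic heavy chain, the invariant light chain beta-2 microglobulin (B2m) and a short peptide. Peptides cut by the proteasome in the cytosol are pumped into the endoplasmic reticulum by the transporter TAP, a dimer of Tap1 and Tap2, and tapasin (Tapbp) holds the empty heavy chain next to the transporter until a peptide is bound. The complex then moves to the cell surface, where CD8+ T cells read the peptide, and macrophages use the pathway for peptides of their own proteins and of engulfed material. Heavy chain and light chain depend on each other, since class I heavy chains that lack B2m are mostly held back in the cell. Transcription of these genes is raised by interferons and by NLRC5.

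The promoter sequences of B2m, of 3 heavy chains (H2-K1, H2-D1 and H2-T23) and of Tap1 are shown because the products of these genes meet in the same complex, while their transcripts varied differently between libraries. Windows from 250 bases before to 50 bases after the transcription start were taken from RefSeq (GRCm38.p6), where 8 of the 10 members had one (those of H2-Q7, H2-M3 and Tapbp were searched and are not printed), and the first window listed per gene was used. Capitals mark matches on either strand to 4 motifs, some of which overlap. These are CCAAT, which factor NF-Y binds, TGACG, the core of the X2 box, the interferon-stimulated response element (ISRE), searched as GAAA and, after any 2 bases, a further GAAA, and the NF-kB consensus.
B2m (chr2:122147437-122147736, plus strand): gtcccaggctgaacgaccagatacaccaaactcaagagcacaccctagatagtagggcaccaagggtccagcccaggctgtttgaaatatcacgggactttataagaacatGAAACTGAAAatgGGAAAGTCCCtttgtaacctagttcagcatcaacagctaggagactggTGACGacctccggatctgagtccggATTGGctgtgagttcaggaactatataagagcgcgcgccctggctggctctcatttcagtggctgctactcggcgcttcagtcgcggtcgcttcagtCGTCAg
H2-K1 (chr17:34000298-34000597, minus strand): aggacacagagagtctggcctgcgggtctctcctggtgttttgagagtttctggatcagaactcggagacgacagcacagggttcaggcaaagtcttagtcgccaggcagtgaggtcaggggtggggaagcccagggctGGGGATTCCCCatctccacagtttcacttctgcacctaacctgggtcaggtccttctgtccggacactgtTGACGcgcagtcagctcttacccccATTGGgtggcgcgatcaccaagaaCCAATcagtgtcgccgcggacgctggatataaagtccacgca
H2-D1 (chr17:35262844-35263143, plus strand): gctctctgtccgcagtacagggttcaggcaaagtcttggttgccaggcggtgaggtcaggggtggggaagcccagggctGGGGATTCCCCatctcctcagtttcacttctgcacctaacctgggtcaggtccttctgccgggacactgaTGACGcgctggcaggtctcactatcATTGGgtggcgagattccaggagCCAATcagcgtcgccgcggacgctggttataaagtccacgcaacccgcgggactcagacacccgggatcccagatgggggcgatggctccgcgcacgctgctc
H2-T23 (chr17:36032652-36032951, minus strand): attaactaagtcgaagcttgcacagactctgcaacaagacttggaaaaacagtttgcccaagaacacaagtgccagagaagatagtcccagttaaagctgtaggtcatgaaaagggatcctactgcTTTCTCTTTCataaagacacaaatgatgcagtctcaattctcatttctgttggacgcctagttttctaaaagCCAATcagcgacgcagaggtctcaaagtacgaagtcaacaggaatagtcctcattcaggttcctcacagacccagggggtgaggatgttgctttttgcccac
Tap1 (chr17:34187306-34187605, plus strand): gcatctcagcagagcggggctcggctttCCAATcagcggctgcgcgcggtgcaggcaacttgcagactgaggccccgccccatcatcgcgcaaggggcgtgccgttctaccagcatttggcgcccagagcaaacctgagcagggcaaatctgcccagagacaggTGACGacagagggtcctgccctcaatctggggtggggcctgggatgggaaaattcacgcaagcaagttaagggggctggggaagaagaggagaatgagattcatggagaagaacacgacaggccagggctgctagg

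A CCAAT box was found in all 8 windows, against 37.4% of the 32851 windows of all genes. The TGACG core was found in 6 of the 8, namely B2m, H2-K1, H2-D1, H2-Q7, H2-M3 and Tap1, against 20.8% of all windows. The NF-kB consensus was found in 5 of the 8 (B2m, H2-K1, H2-D1, H2-Q7 and H2-M3), against 4.51% of all windows. In H2-K1 and H2-D1 its matches form the longest run of capitals, which reads alike in both genes and holds overlapping matches on both strands. The ISRE letters were found in B2m and H2-T23, against 3.44% of all windows. In B2m the ISRE and NF-kB matches lie close together, starting at -139 and -126 relative to the transcription start. The Tap1 window overlaps that of Psmb9, a subunit of the immunoproteasome transcribed from the opposite strand, over 275 bases. These matches describe letters only and say nothing about binding in these cells.

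Library totals ran from 2857097 to 3917207 counts. Ptk2b, which encodes PYK2, served as the check of the genotype and had 568 to 737 counts in the WT and 64 to 71 counts in the PYK2 KO libraries. Transcript ends of the gene were thus still counted in every PYK2 KO library, at 0.112 times the WT level, and the part of the gene that the knockout removes is not given in the sources used here. All 8 macrophage markers tested (among them Adgre1, Cd68, Csf1r and Lyz2) were present, with summed levels of 29150 to 29900 CPM (counts relative to the normalized library total) in WT, against 30330 to 31330 CPM in PYK2 KO BMDMs. Lyz2 was the highest of the 8. Log2 fold changes of PYK2 KO against WT lay above 0 for 4 markers and below 0 for 4, with a median of 0.03. The genotypes did not overlap for 2 of the 8, both higher in PYK2 KO BMDMs, against 5.17% of all genes. Markers of NK cells (6 of 6) and erythroid cells (6 of 6) had no counts, as did Cd79a, Ms4a1 and Pax5 of B cells, Cd3e, Cd3d and Cd8a of T cells and Flt3, Zbtb46, Xcr1, Clec9a and Siglech of dendritic cells. Ighm made up most of the B cell list, whose summed level was 369.5 to 401 CPM in the WT and 336 to 379.5 CPM in the PYK2 KO libraries. T cell markers summed to at most 9.52 CPM and those of dendritic and of stromal cells to at most 4.85 CPM. In bulk RNA, fewer cells of a type and less RNA per cell cannot be told apart.

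The classical heavy chains H2-K1 and H2-D1, which present peptides to CD8+ T cells in C57BL/6 mice, did not pass the test between genotypes. H2-D1 (chromosome 17, 35262730 to 35267499 in GENCODE M21, GRCm38) was at 4427, 3956 and 3682 CPM in WT libraries 1, 5 and 6 and at 3572, 3871 and 3631 CPM in PYK2 KO libraries 2, 3 and 4. WT library 1 was the highest, and the genotypes overlapped. The log2 fold change of PYK2 KO against WT was -0.12 (standard error, SE, 0.08), with an adjusted p of 0.912 over all genes tested (edgeR quasi-likelihood, Benjamini-Hochberg). Its 95% interval allows a level between 0.821 and 1.03 times that of WT. H2-K1 (chromosome 17, 33996017 to 34000347) was at 1874, 1983 and 1943 CPM in WT and at 2059, 2086 and 1899 CPM in PYK2 KO BMDMs. These 6 values lay within 1.11-fold of each other, and WT library 1 was here the lowest. H2-K1 had a log2 fold change of 0.06 with a standard error of 0.07 (adjusted p = 0.963, edgeR with Benjamini-Hochberg adjustment) and a 95% interval of 0.939 to 1.16 times the WT level. Without WT library 1 the log2 fold change of H2-D1 was -0.05, and without WT library 6 it was -0.18 (adjusted p = 0.654, edgeR with Benjamini-Hochberg adjustment).

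The ratio of H2-D1 to H2-K1 counts was 2.36 in WT library 1 and between 1.74 and 1.99 in the other libraries. Mean ratios were 2.08 ± 0.25 in the WT and 1.83 ± 0.09 in the PYK2 KO group (SD, n = 3 mice each), and the genotypes overlapped. The 3′ ends of these transcripts share sequence. The longest identical stretch within the last 500 bases was 59 bases between H2-D1 and H2-K1, 63 between H2-K1 and H2-T23 and 91 between H2-K1 and H2-Q6, so the split of reads between heavy chains is uncertain. Summed over the 5 heavy chain members, which does not depend on that split among them, the level was 6313 ± 401 CPM in the WT and 6045 ± 253 CPM in the PYK2 KO group (SD, n = 3 mice each). The sum ran from 5840 CPM in PYK2 KO library 4 to 6727 CPM in WT library 1, a span of 1.15-fold.

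The non-classical heavy chains varied more between libraries, with within-genotype SDs of 0.194 (H2-T23) and 0.238 (H2-M3) on the log2 scale against 0.0598 for H2-K1 and 0.104 for H2-D1. H2-T23 encodes Qa-1, a ligand of the CD94/NKG2A receptor of NK cells, and was at 361, 290 and 255.5 CPM in WT and at 286, 308 and 266 CPM in PYK2 KO BMDMs. Both the lowest and the highest value were WT libraries (6 and 1). Its log2 fold change was -0.08 ± 0.11 (SE; adjusted p = 0.965, edgeR with Benjamini-Hochberg adjustment), and it was 0.07 without WT library 1. H2-M3, which presents N-formylated peptides of bacteria and mitochondria, was at 61.0, 51.5 and 44.5 CPM in WT and at 48.4, 60.3 and 42.6 CPM in PYK2 KO BMDMs. The log2 fold change was -0.07 ± 0.14 (SE; adjusted p = 0.989, edgeR with Benjamini-Hochberg adjustment), and its sign turned when WT library 1 (0.06) or PYK2 KO library 4 (0.04) was left out. Thus WT library 1 held the highest value of H2-D1, H2-T23 and H2-M3 and the lowest of H2-K1.

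H2-Q7, a Qa-2 antigen, was at the edge of detection. It had 15, 12 and 4 counts in WT libraries 1, 5 and 6 and 6, 8 and 6 counts in PYK2 KO libraries 2, 3 and 4. These counts were below the expression filter, so the gene had no test of its own. In the fit without a filter its log2 fold change was -0.46 with a 95% interval from -1.38 to 0.45, which includes 0. That interval rests on a spread shared by all genes (74640 degrees of freedom) and may be too narrow for H2-Q7. Its neighbor H2-Q6 had at most 2 counts in any library.

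B2m, the light chain shared by these heavy chains, had the largest within-genotype spread of the 9 tested members. Its counts were 3803, 939 and 607 in WT libraries 1, 5 and 6, and 1631, 3020 and 5102 in PYK2 KO libraries 2, 3 and 4. On the CPM scale these were 971, 263 and 213 CPM in WT and 523, 1046 and 1521 CPM in PYK2 KO BMDMs. WT library 1 lay above PYK2 KO library 2, so the genotypes overlapped, although PYK2 KO libraries 3 and 4 were the highest and WT libraries 5 and 6 the lowest of the 6. The highest value was 4.57 times the lowest among the WT libraries and 2.91 times the lowest among the PYK2 KO libraries, and 7.15 times over all 6.

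**Figure D1:**
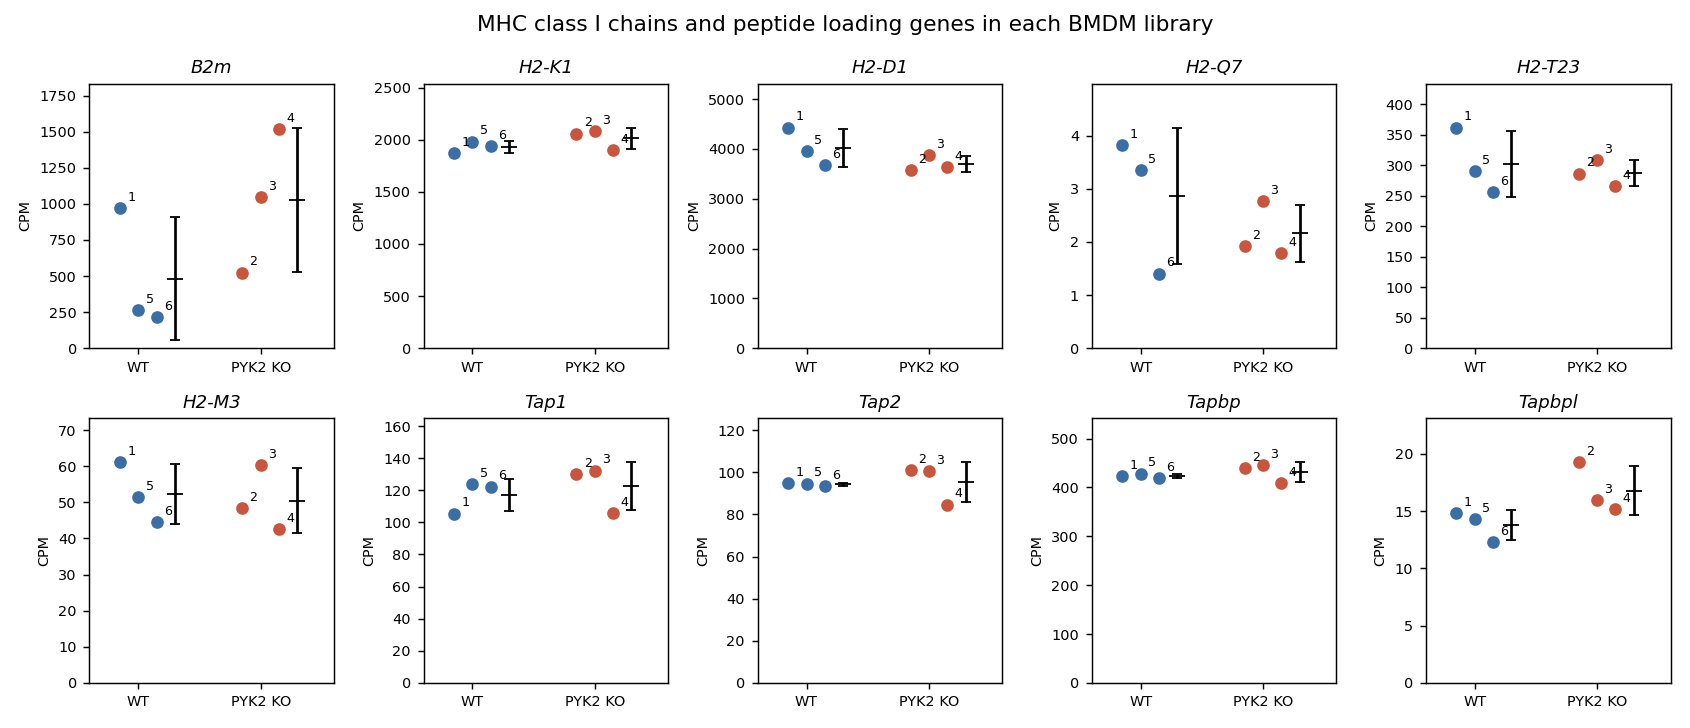
Level of each member (CPM) in the WT (blue) and PYK2 KO (red) BMDM libraries, each point being the library of 1 mouse with its number, and the black bar the mean ± SD of 3 mice. B2m runs from 213 to 1521 CPM, while H2-K1 stays between 1874 and 2086 CPM. Tapbpl is the 1 of 9 tested members whose genotypes do not overlap, against 10.2% of all genes tested.

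Mean B2m levels were 482 ± 424 CPM in the WT and 1030 ± 499 CPM in the PYK2 KO group (SD, n = 3 mice each). The log2 fold change was 1.09 (standard error 0.43), which is 2.13-fold with a 95% interval from 1.14 to 3.99. The unadjusted p was 0.0216 and the adjusted p was 0.702 (edgeR quasi-likelihood, Benjamini-Hochberg), so the difference did not pass over all genes. A two-sided exact permutation test of the log2 values over the 6 libraries gave p = 0.2, where the smallest that 3 against 3 mice allow is 0.1. Without WT library 1 the log2 fold change was 2.11 and passed (adjusted p = 0.00308, edgeR with Benjamini-Hochberg adjustment), while without PYK2 KO library 4 it was 0.69 (adjusted p = 0.9999, edgeR). Without WT library 6 it was 0.74 and without WT library 5 it was 0.79, with adjusted p of 0.791 and 0.995 by edgeR. The call and the size of the B2m difference therefore rested on which libraries were included.

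The summed heavy chains varied far less between libraries than B2m. Among the WT libraries the order was the same for both, the heavy chains being at 6727, 6284 and 5927 CPM in libraries 1, 5 and 6. Among the PYK2 KO libraries it was not, since library 4 was highest for B2m and lowest for the heavy chains (5840 CPM). For 100 counts of the 5 heavy chain members there were 14.4, 4.18 and 3.59 B2m counts in WT libraries 1, 5 and 6. The PYK2 KO libraries 2, 3 and 4 held 8.77, 16.5 and 26.0. This ratio spanned 7.25-fold, against 1.15-fold for the summed heavy chains alone. The root mean square difference between the library profile of B2m and that of the other 8 tested members (log2 CPM, each gene centred on its mean of 6 libraries) was 0.983 to 1.11, which is close to the distance of B2m from its own mean (1.05). Any gene with little spread lies about that far from B2m, so this distance cannot show whether the profiles go together. By it the members ranked from 1933 (Tapbpl) to 7316 (Tap1) of 9814 genes.

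The pooled SD of log2 CPM within genotypes was 1.00 for B2m, against a median of 0.165 over all genes tested and 0.0492 (Tapbp) to 0.238 (H2-M3) for the other 8 tested members. Among the 1926 genes with a mean of at least 100 CPM, B2m had the third largest. The other two, named after their values were seen, were Gapdh and Gm22751. Gapdh, a glycolytic enzyme often used as a reference gene, had 104, 3473 and 2854 counts in WT libraries 1, 5 and 6 and 67, 53 and 3323 counts in PYK2 KO libraries 2, 3 and 4. WT library 1 and PYK2 KO library 3 were thus high for B2m and low for Gapdh, WT libraries 5 and 6 the reverse, and PYK2 KO library 4 high for both. PYK2 KO library 2 was low for Gapdh and the lowest PYK2 KO library for B2m, so the libraries showed no single relation between the genes.

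The 5 genes with a library profile nearest to that of B2m over the 6 libraries were Gtpbp4, Ubl5, Eif4a-ps4, S100a9 and Rpl19-ps11. Their root mean square differences from it were 0.309, 0.39, 0.403, 0.418 and 0.423 on the log2 scale. Ubl5, a ubiquitin-like protein, had 291, 109 and 87 counts in WT libraries 1, 5 and 6 and 204, 239 and 372 counts in PYK2 KO libraries 2, 3 and 4. Each of the 5 had its highest value in PYK2 KO library 4 and its lowest in WT library 5 or 6, which follows from how they were picked. Counts per library were low for Gtpbp4 (11 to 74), Eif4a-ps4 (5 to 52) and Rpl19-ps11 (8 to 80). Eif4a-ps4 and Rpl19-ps11 carry pseudogene names and may share reads with their parent genes, so their counts are uncertain.

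S100a9 is a marker of neutrophils that myeloid cells also express, and it belongs to a list of 7 neutrophil genes. Its counts were 277, 107 and 97 in WT and 158, 269 and 346 in PYK2 KO libraries. Summed over the list, the level was 141, 91.5 and 107 CPM in WT libraries 1, 5 and 6 and 97.2, 177 and 185 CPM in PYK2 KO libraries 2, 3 and 4. S100a9, which was picked for its likeness to B2m, made up 31.8% to 55.6% of this sum. Without it, as was tried after the values were seen, the list summed to 70.0, 61.6 and 72.9 CPM in WT and to 46.5, 84.2 and 82.3 CPM in PYK2 KO BMDMs, and WT library 6 then lay above WT library 1. Of the list, 5 genes were tested, 0 passed over all genes and 2 had an unadjusted p under 0.05 on the higher side, against 3.4% of all genes. These were S100a9 and Mpo, with log2 fold changes of 0.85 and 1.19, while S100a8, the partner of S100a9, had 0.10 and Camp and Ltf had -0.26 and -0.09. Ly6g, which defines mature neutrophils, had at most 1 count in any library. The part of these transcripts in the B2m values was not tested. Total counts, the share of ribosomal protein transcripts (6.65% to 7.33%) and that of mitochondrial transcripts (0.0374% to 0.0458%) did not separate the 3 libraries highest for B2m (WT library 1 and PYK2 KO libraries 3 and 4) from the others. These values describe whole libraries, and the mitochondrial share was very small. The part of library quality in the B2m values was not tested. Patl2, which overlaps B2m on the opposite strand (chromosome 2, B2m from 122147686 to 122153083), had 1 to 7 counts.

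**Figure D2:**
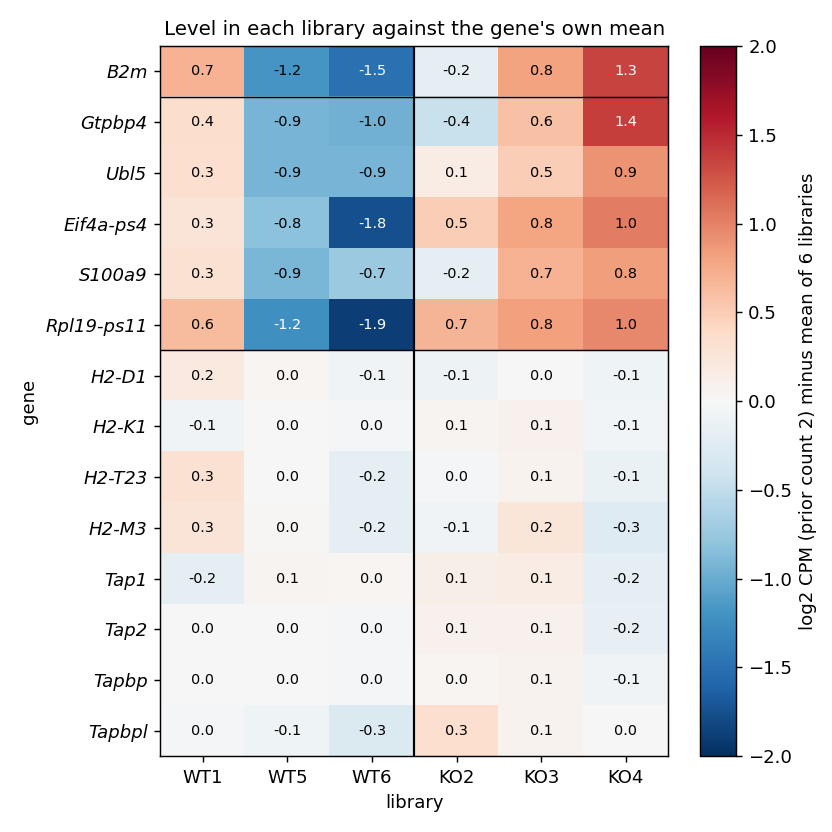
Level of each gene in each library as log2 CPM minus the gene's own mean over 6 libraries (red above, blue below), with WT libraries left and PYK2 KO libraries right of the line. B2m and the 5 genes picked as nearest to it swing between libraries of the same genotype, from -1.49 to 1.35 for B2m. The other 8 tested members stay near 0.

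The transporter subunits and tapasin did not pass the test either, and Tapbp had the smallest within-genotype spread of the 9 tested members. Tapbp, which bridges the heavy chain and TAP, was at 423, 428 and 419 CPM in WT and at 439, 446 and 408 CPM in PYK2 KO BMDMs. All 6 values lay within 1.09-fold. The log2 fold change was 0.03 ± 0.08 (SE; adjusted p = 0.993, edgeR with Benjamini-Hochberg adjustment), with a 95% interval of 0.907 to 1.14 times the WT level. Zbtb22, which overlaps it on the same strand, had 118 to 186 counts, and reads of the shared part may be split between the genes.

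Tap1 was at 106, 124 and 122 CPM in WT and at 130, 132 and 106 CPM in PYK2 KO BMDMs, and Tap2 at 94.8, 94.6 and 93.6 CPM in WT and at 101, 100.5 and 84.6 CPM in PYK2 KO BMDMs. PYK2 KO library 4 held the lowest Tap2 value and the second lowest Tap1 value, below PYK2 KO libraries 2 and 3. Log2 fold changes were 0.07 (standard error 0.10) for Tap1 and 0.01 (standard error 0.09) for Tap2, with adjusted p of 0.972 and 0.994 by edgeR with Benjamini-Hochberg adjustment. The 95% intervals allowed 0.902 to 1.22 times the WT level for Tap1 and 0.88 to 1.16 times for Tap2. Tap1 and H2-K1 ranked the 6 libraries in the same order, with WT library 1 lowest and PYK2 KO library 3 highest. The Tap1 order rests on small differences, such as 105.5 CPM in WT library 1 against 105.8 CPM in PYK2 KO library 4. The likeness of Tap1 and H2-K1 was not tested.

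Tapbpl encodes TAPBPR, a relative of tapasin that edits the peptides on class I molecules outside the loading complex. It was at 14.8, 14.3 and 12.3 CPM in WT and at 19.3, 15.9 and 15.2 CPM in PYK2 KO BMDMs, from 35 to 60 counts per library. The lowest PYK2 KO value was above the highest WT value, so it was the 1 of 9 tested members whose genotypes did not overlap, against 10.2% of all genes tested (5.17% higher and 5.07% lower in PYK2 KO BMDMs). The log2 fold change was 0.27 ± 0.18 (SE; adjusted p = 0.913, edgeR with Benjamini-Hochberg adjustment), with a 95% interval from -0.11 to 0.66. It was 0.16 without PYK2 KO library 2. Vamp1, which overlaps it on the opposite strand, had 5 to 14 counts, and strand use in counting is not given in the sources used here.

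Over the 9 members tested, 0 passed an adjusted p of 0.05, against 0.255% of all 9815 genes (25 genes). By direction these were 11 genes higher (0.112%) and 14 genes lower (0.143%) in PYK2 KO BMDMs. At an unadjusted p under 0.05 there was 1 member, B2m, against 6.03% of all genes. It lay on the higher side, where 3.4% of all genes did, with 2.63% on the lower side. The 9 members had a median of 0.03 on the log2 scale, against 0.0019 over all genes. By role, the 4 tested heavy chains had a median of -0.07 and a range from -0.12 to 0.06, and the 4 loading genes a median of 0.05 and a range from 0.01 to 0.27. DESeq2 and limma voom also called 0 members, with 0 and 1 of them at an unadjusted p under 0.05.

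Other genes that act at the same steps of the pathway were described from lists chosen by function. Of 24 other class I and class I-like heavy chains, 23 were in the table and 8 were tested, and 0 passed over all genes, with a median log2 fold change of 0.03. Of these, 2 had an unadjusted p under 0.05, and both lay lower in PYK2 KO BMDMs without overlap, against 2.63% and 5.07% of all genes that did so by these measures. Fcgrt, the neonatal Fc receptor, whose protein pairs with B2m, was at 64.2 ± 12.0 CPM in the WT and 42.5 ± 3.49 CPM in the PYK2 KO group (SD, n = 3 mice each). The log2 fold change of Fcgrt was -0.61 ± 0.14 (SE; adjusted p = 0.132, edgeR with Benjamini-Hochberg adjustment), and without WT library 6 it was -0.74 and passed (adjusted p = 0.0129, edgeR). Procr, the endothelial protein C receptor, a class I-like protein that does not use B2m, was at 45.4 ± 6.01 and 32.0 ± 5.53 CPM (SD, n = 3 mice each), with a log2 fold change of -0.50 and an adjusted p of 0.457 by edgeR. H2-Q4 and Hfe, the next by p, had log2 fold changes of -0.33 and 0.31 and adjusted p of 0.94 and 0.947 by edgeR. Azgp1, Cd1d2 and 7 H2 genes of the list had no counts in any library.

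The chaperones and peptide-trimming enzymes prepare heavy chains and peptides. All 6 chaperone genes were tested and 0 passed, with log2 fold changes from -0.02 to 0.06 and a median of 0.0023. Calr, calreticulin, was at 2287 ± 22.3 CPM in the WT and 2384 ± 112 CPM in the PYK2 KO group (SD, n = 3 mice each), and Pdia3, which forms a disulfide with tapasin, had a log2 fold change of 0.02, as against 0.01 for Uggt1 and -0.02 for Ganab. Of the 7 trimming enzymes tested, 0 passed and 1 had an unadjusted p under 0.05 on the higher side, against 3.4% of all genes. That gene was Tpp2, a cytosolic peptidase, at 44.4 ± 4.67 CPM in the WT and 57.9 ± 8.69 CPM in the PYK2 KO group (SD, n = 3 mice each), with a log2 fold change of 0.38 and an adjusted p of 0.591 by edgeR. Lnpep, with 14 to 26 counts per library, had a log2 fold change of 0.43 ± 0.26 (SE; adjusted p = 0.912, edgeR with Benjamini-Hochberg adjustment). Blmh and Lap3 had -0.11 and 0.11, and the list had a median of 0.05.

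The 6 genes listed for the immunoproteasome, which cuts the peptides, and for its PA28 activator had log2 fold changes from 0.02 to 0.11 with a median of 0.04, and 0 passed. Psmb10 had 0.11 (adjusted p = 0.933, edgeR), Pomp 0.10, Psme2 0.04 and Psmb8 0.03. Psmb9 was added after its values were seen because it shares its start region with Tap1. It was at 102, 79.8 and 78.5 CPM in WT libraries 1, 5 and 6 and at 93.7, 86.6 and 86.4 CPM in PYK2 KO libraries 2, 3 and 4. It was highest in WT library 1, where Tap1 was lowest, and its log2 fold change was 0.03 ± 0.11 (SE; adjusted p = 0.994, edgeR with Benjamini-Hochberg adjustment).

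The 16 transcription factors of class I genes were all tested. None of them passed over all genes, 2 had an unadjusted p under 0.05, both with a positive log2 fold change (3.4% of all genes), and the median was 0.01. These were Creb1, at 2.82 ± 0.97 CPM in the WT and 4.83 ± 0.36 CPM in the PYK2 KO group (SD, n = 3 mice each, adjusted p = 0.823 by edgeR), and Stat2, which carries type I interferon signals, at 59.5 ± 5.72 and 69.6 ± 5.42 CPM (SD, n = 3 mice each, adjusted p = 0.827 by edgeR). Rfxank and Nfyc, whose products bind the X and Y boxes of MHC promoters, had log2 fold changes of 0.23 and -0.16. Of 7 interferon receptor and kinase genes 0 passed and the median was -0.02. The genotypes did not overlap for 2 of the 7, 1 lower (Ifngr1) and 1 higher (Jak2) in PYK2 KO BMDMs, against 10.2% of all genes. Ifngr1 was at 210 ± 1.08 CPM in the WT and 195 ± 0.66 CPM in the PYK2 KO group (SD, n = 3 mice each), with a log2 fold change of -0.11 and an adjusted p of 0.926 by edgeR, while Jak2, Tyk2 and Ifngr2 had 0.21, 0.11 and -0.32. Ifngr2 had only 14 to 36 counts per library, with a standard error of 0.31. Of the MARCH ubiquitin ligases, which mark surface MHC molecules for uptake, 3 were tested and 0 passed, with -0.41 for Marchf9, -0.09 (the median) for Marchf8 and 0.28 for Marchf1. Marchf9 and Marchf1 had only 11 to 24 and 14 to 29 counts per library, with standard errors of 0.35 and 0.28.

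**Figure D3:**
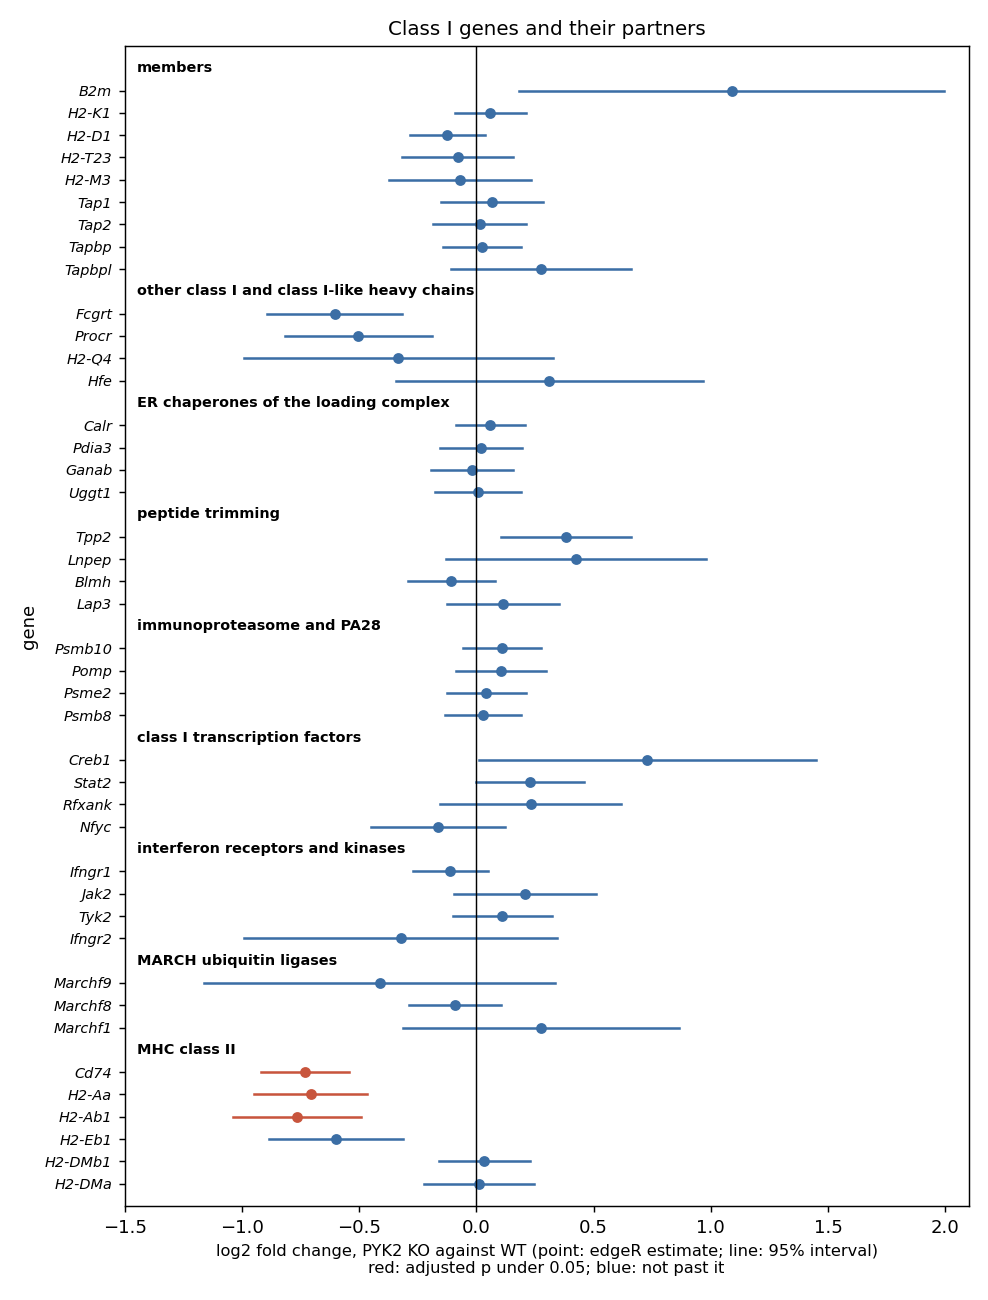
Log2 fold change of PYK2 KO against WT BMDMs (point) with its 95% interval (line) from edgeR for the 9 tested members and for the named genes of each pathway list, in red where the adjusted p is under 0.05. The 3 red genes are MHC class II genes, and B2m has the widest interval of the members.

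In the genome, 8 of the 10 members lie on chromosome 17 between Tapbp and H2-M3 (33915899 to 37274484, GRCm38), which is the H2 complex, while B2m lies on chromosome 2 and Tapbpl on chromosome 6. Tap1, Psmb8 and Tap2 follow each other between 34187553 and 34216321 next to the class II genes. Of 84 genes tested in the interval, 2 passed, both lower in PYK2 KO BMDMs and both of class II. They were H2-Aa (log2 fold change -0.71, adjusted p = 0.0109) and H2-Ab1 (log2 fold change -0.77, adjusted p = 0.0139), by edgeR with Benjamini-Hochberg adjustment. Their calls were lost without PYK2 KO library 2 or 4, and that of H2-Ab1 also without WT library 5. In those fits the log2 fold changes were -0.68 and -0.63 for H2-Aa and -0.74, -0.67 and -0.80 for H2-Ab1, with adjusted p by edgeR between 0.0568 and 0.0846. Over the 84 genes the median was -0.02 on the log2 scale, and 4.76% had an unadjusted p under 0.05, against 6.03% of all genes. Of the 10 class II genes listed, 6 were tested and 3 passed as lower, against 0.143% of all genes, Cd74 (log2 fold change -0.73, adjusted p = 0.000536, edgeR) being the third. The values of H2-Eb1, H2-DMa and H2-DMb1 were -0.60, 0.01 and 0.03, the first with an adjusted p of 0.132 by edgeR, and the median of the 6 was -0.65.

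The log2 fold changes of the members moved little with the normalization, the test or the filter, although B2m passed the threshold in the fit without a filter. Over those settings B2m ran from 1.08 to 1.30 on the log2 scale, and the other members kept their sign in each. Leaving out 1 library moved B2m most, from 0.69 to 2.11.

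**Figure D4:**
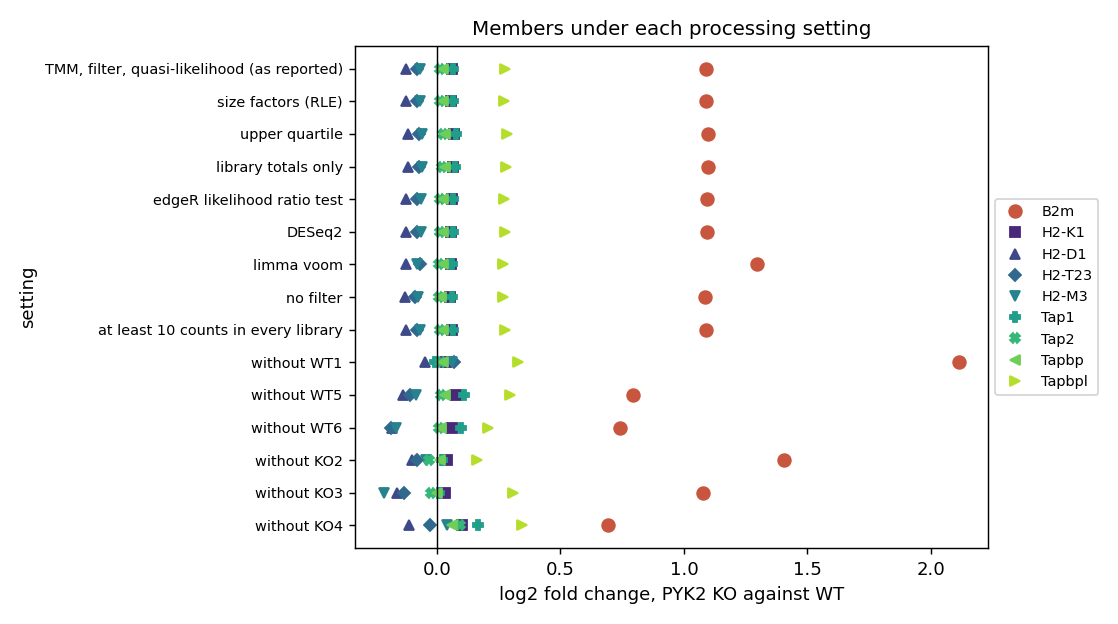
Log2 fold change of the 9 tested members (PYK2 KO against WT) under each normalization, test and filter and with each library left out. B2m moves from 0.69 to 2.11 with the library left out, while the other members stay between -0.21 and 0.34.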

How the data were processed

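The libraries came from 7-day BMDMs, with 3 mice of each genotype. Per gene symbol, the authors deposited raw whole-number counts produced by the UTAP pipeline, the libraries holding transcript 3′ ends. The submitters' processing notes name cutadapt, STAR and the mm10 build, which is GRCm38, and the collapsing of molecular identifiers is not given in the sources used here. Column names gave the mouse for all 6 columns, and 0 columns belonged to other samples. In all, 18659 of 55291 rows had at least 1 count.

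Genotypes were compared with edgeR 4.0.16 in R 4.3.3, using its quasi-likelihood test after the filterByExpr filter and TMM normalization, with no covariate. Genes passed at a Benjamini-Hochberg adjusted p under 0.05 over all genes tested, and the script was checked on simulated counts. A standard error is the size of the fold change over the root of its F value. Alternatives were DESeq2 1.42.0, limma 3.58.1 (voom), the likelihood ratio test, other normalizations and filters, and leaving out each library. Likeness to B2m used log2 CPM with a prior count of 2. Replicates differed by more than counting error (chi-square over its degrees of freedom at least 2.15), so none were merged; with molecular identifiers possibly not collapsed, this covers counting error only.

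The members, the lists and the alternatives were chosen with earlier results of these data known. Named were all members, Ptk2b, of each list the genes past the threshold and up to 4 more with the smallest p-values, and the 5 genes nearest to B2m. Pathway lists are described by counts and a median. Positions came from GENCODE M21 by symbol. P-values weigh the difference between genotypes against the spread between libraries of the same genotype. Mouse, culture and library preparation cannot be told apart in that spread, because libraries were not repeated within a mouse.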

Additional observations from a re-analysis of the deposited data

How the results depend on the processing

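No paired analysis was possible because the genotypes share no replicate number (1, 5 and 6 in WT against 2, 3 and 4 in PYK2 KO). The number of members past the threshold was 1 without a filter, from 0 to 1 with each library left out, and 0 under the other alternatives. In both cases the 1 member was B2m. Without a filter its adjusted p was 4.19e-33 (edgeR), in a fit with 74640 degrees of freedom against 15.7 with the filter, so that the genes shared a common spread. In DESeq2 its unadjusted p was 0.17. The number of all genes past the threshold was 45 with the likelihood ratio test, 159 without a filter and from 14 to 34 with each library left out, with 14 when PYK2 KO library 4 was left out and 15 when either WT library 5 or PYK2 KO library 2 was. In the list of other class I heavy chains it was 1 with the likelihood ratio test, 2 without a filter and from 0 to 1 with each library left out, and among class II genes it was 4 with the likelihood ratio test, 4 without a filter and from 1 to 3 with each library left out. The other pathway lists had 0 under each alternative.

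The Ptk2b value stayed past the threshold throughout, from -3.19 to -3.11 with each library left out. Of the 586 values of other single genes, 555 kept their direction and side of the threshold, 8 became stronger, 5 weaker and 18 reversed. The reversed values all came from leaving out a library, with ranges of -0.18 to 0.070 for H2-T23, -0.21 to 0.059 for H2-M3, -0.0072 to 0.16 for Tap1, -0.032 to 0.095 for Tap2, -0.00054 to 0.063 for Tapbp, -0.50 to 0.014 for H2-Q4, -0.015 to 0.054 for Pdia3, -0.080 to 0.017 for Ganab, -0.018 to 0.035 for Uggt1, -0.0042 to 0.068 for H2-DMb1 and -0.033 to 0.064 for H2-DMa. The causes were not tested. Low counts kept H2-Q7 alone of the 10 members out of the test.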
